A study of Rattus norvegicus with 12 samples.

Results

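The miR-26 family was measured by qRT-PCR in acinar cells of the rat parotid, the serous salivary gland, across terminal differentiation. Its members were taken by name: every guide strand assay for miR-26a or miR-26b, under a mouse (mmu) or a rat (rno) name. This gave 2 assays, mmu-miR-26a and mmu-miR-26b, of the 375 miRNA assays on the panel, and neither had a rat-named duplicate. Acinar cells of Sprague Dawley rats, entered as albino in the labels, were isolated by laser capture microdissection at embryonic day 20 (E20) and at postnatal days 5, 15 and 25 (P5, P15 and P25), with 3 samples per age and 12 in all. The animals received no treatment according to the labels, and the samples of an age came from separate litters. The cells were picked from lightly stained sections by their structure, and caps of the same sample were combined before RNA isolation.

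miR-26a and miR-26b are broadly expressed miRNAs that share a seed, the bases that pair with target mRNAs. They are encoded inside genes of small C-terminal domain phosphatases, and miRNA and host phosphatase are known to restrain entry into S phase through the retinoblastoma protein. The chromatin methyltransferase Ezh2 is a well described target, and MYC is known to lower the family in dividing cells. The parotid acinar cell leaves the cell cycle and builds its secretory machinery over the period sampled here.

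The mature sequences are shown because they define the family and because the assays have to tell them apart. They are rat sequences from RefSeq (GRCr8), written 5′ to 3′ with the seed, bases 2 to 8, in capitals, and both members matched an entry. The guide strand of miR-26a lies at chr8:127633063-127633084 on the plus strand, within the span of Ctdspl. That of miR-26b lies at chr9:83425723-83425743 on the plus strand, within the span of Ctdsp1.
rno-miR-26a-5p: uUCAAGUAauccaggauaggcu
rno-miR-26b-5p: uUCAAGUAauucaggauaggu
The members were identical at 19 of the 21 positions that both have. Counted from the 5′ end, they differed by C11U and C21U, with the base of miR-26a first, and miR-26a is 22 bases long. No other name among the 693 mature names of the table carried this seed, so the family has 2 members there. The opposite arms of the hairpins, which were not analysed here, are shown for comparison and lack the seed.
rno-miR-26a-3p: ccuauucuugguuacuugcac
rno-miR-26b-3p: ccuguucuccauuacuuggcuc
The data hold no test of how far each assay detects the other member.

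The CT is the PCR cycle at which a well crosses the threshold, so a lower CT means more template. Both members gave a CT in all 12 samples, so none of their values was imputed in the main fits. The number of miRNAs with a CT was between 179, in P15 replicate 1, and 307, in P5 replicate 2. It was between 282 and 306 at E20 and between 202 and 223 at P25. P15 replicate 1 and P25 replicate 1 had the fewest, 179 and 202. Results for the members and for the lists of miRNAs linked to MYC or Ezh2 are also given without these samples where that changed a call. The calls on the lists of cell type miRNAs were not checked without them. Of the 11 assays on a list of epithelial and acinar miRNAs, at least 10 gave a CT in each sample. The 3 mesenchymal assays and the 3 smooth muscle and pericyte assays also gave a CT in every sample. Detection alone therefore does not check the labelled cell type. RNA was pooled over captured cells, so fewer cells with a miRNA and less of it per cell cannot be told apart.

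miR-26a was among the most abundant miRNAs of the panel by CT at every age. As deposited, its CT was 27.1, 28.3 and 28.4 in the 3 E20 samples, 29.6, 25.8 and 28.2 at P5, 31.4, 27.3 and 27.1 at P15, and 30.5, 27.7 and 27.6 at P25. Counted from the lowest CT of the array, it ranked between 9 and 21 in 11 samples. The exception was P25 replicate 1, where it ranked 36 of 202 detected miRNAs, while it ranked 11 and 10 in the other P25 samples.

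miR-26b sat near the middle of each array. Its CT was 32.57, 32.97 and 32.97 at E20, 34.6, 30.5 and 33.2 at P5, 35.4, 32.6 and 32.4 at P15, and 33.7, 33.9 and 33.3 at P25. It ranked between 165 and 177 at E20 and between 94 and 122 at P25, but fewer miRNAs were detected at P25. Among the 120 miRNAs detected in all 12 samples, a fixed set, it ranked between 93 and 96 at E20 and between 78 and 92 at P25. These ranks use no array reference but shift with the other miRNAs of the set, and the ranges of P25 and E20 met at ranks 92 and 93. How many of the 120 miRNAs separate these ages by rank was not counted, so these ranks are only a description. For miR-26a the ranks in the same set overlapped, at 14 to 20 for E20 and 10 to 34 for P25.

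To compare ages, the median CT over all miRNAs that an array detected, minus the CT of the member, was taken as its normalized level on the log2 scale. The normalized level of miR-26a was 4.82, 3.91 and 3.88 at E20, 4.57, 5.53 and 4.83 at P5, 3.36, 5.62 and 6.42 at P15, and 3.68, 6.04 and 6.12 at P25. The E20 samples lay close together, and at P15 and P25 replicate 1 was the lowest sample, below all E20 samples. The means rose in the order of age, 4.20 ± 0.54, 4.98 ± 0.50, 5.13 ± 1.59 and 5.28 ± 1.39 (SD, n = 3), but no neighbouring ages differed beyond their spread. The postnatal samples of P15 and P25 varied more than those of E20 and P5.

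The normalized level of miR-26b was -0.64, -0.78 and -0.68 at E20, -0.45, 0.80 and -0.16 at P5, -0.69, 0.34 and 1.17 at P15, and 0.44, -0.19 and 0.38 at P25. E20 was the lowest age by its mean and the most uniform, at -0.70 ± 0.08 (SD, n = 3). The later means were 0.07 ± 0.65, 0.27 ± 0.93 and 0.21 ± 0.35 (SD, n = 3). All P5 and all P25 samples lay above every E20 sample, while P15 replicate 1 fell within the E20 range. Such separation from E20 was common. Of the tested miRNAs with a CT in all 6 samples, 8.18% lay wholly above E20 at P5 (17.6% in either direction) and 21.8% at P25 (39.1% in either direction). The order of the means was E20, P5, P25 and P15, and no neighbours in it differed by limma.

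**Figure D1:**
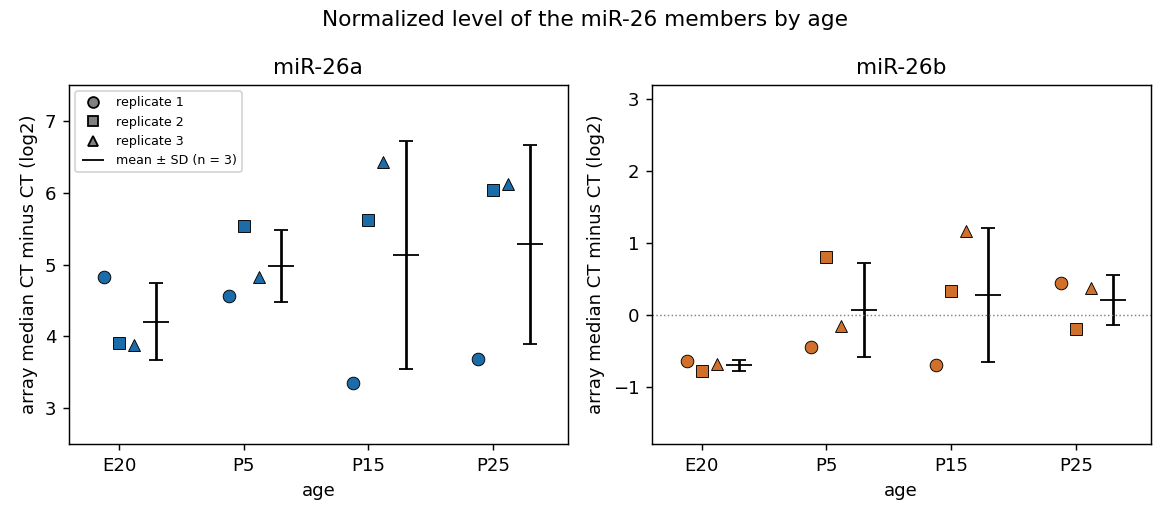
Normalized level (array median CT minus CT, log2) of miR-26a and miR-26b by age, with 3 samples per age as points, the marker shape giving the replicate number, and the mean ± SD beside them. The E20 samples of miR-26b sit between -0.78 and -0.64, and replicate 1 of miR-26a is the lowest sample at P15 (3.36) and P25 (3.68).

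Neither member passed limma's test between E20 and P25, although the samples of miR-26b did not overlap between these ages. The spread in this test is pooled over all 4 ages. In limma's fit of the 12 samples, where p-values were adjusted by Benjamini-Hochberg across 192 tested miRNAs, the log2 change of miR-26a was 1.08 (standard error 0.90, 95% interval -0.84 to 3.00, adjusted p = 0.434). This is a fold change of 2.11, with an interval that runs from a fall (0.558) to a rise of several fold (7.98). For miR-26b the log2 change was 0.91 (standard error 0.71, 95% interval -0.61 to 2.43, adjusted p = 0.401), a fold change of 1.88 with an interval from 0.656 to 5.37. Thus 0 of the 2 members were called, where 23 of all 192 miRNAs (12%) were. Neither member had an unadjusted p-value under 0.05, which 62 of the 192 (32.3%) had. Exact two-sided permutation tests gave p = 0.4 for miR-26a and p = 0.1 for miR-26b, the smallest value that 3 samples against 3 allow.

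The size of the miR-26a change moved with each P25 sample. It was 1.88 without P25 replicate 1 and was not called (adjusted p = 0.234, limma). It was 0.70 without P25 replicate 2 and 0.66 without P25 replicate 3 (adjusted p = 0.697 and 0.700, limma). The change of miR-26b was 0.79 without P25 replicate 1 (adjusted p = 0.559, limma).

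The other pairs of ages gave no call for either member. The log2 change from E20 to P5 was 0.77 for miR-26a and 0.76 for miR-26b, and from E20 to P15 it was 0.93 and 0.97 (adjusted p from 0.433 to 0.854, limma). Among the postnatal ages the changes were between -0.06 and 0.30 for the 2 members, with adjusted p-values from 0.929 to 0.989 in limma. In these pairs 6 of 192 miRNAs (3.12%) were called between P5 and P25, and in the other 4 pairs 0 were (0%), with between 12 and 40 at an unadjusted p-value under 0.05. The step from E20 to P5 had a 95% interval of -1.14 to 2.69 for miR-26a and of -0.75 to 2.28 for miR-26b.

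Across the 4 ages, limma's F test gave an adjusted p-value of 0.837 for miR-26a and 0.780 for miR-26b, where 15 of 192 miRNAs (7.81%) were called. The linear trend in age, with E20 placed before birth at E22, was 0.36 log2 units per 10 days for miR-26a (standard error 0.31, adjusted p = 0.449, limma). It was 0.30 for miR-26b (standard error 0.25, adjusted p = 0.417, limma), and 27 miRNAs (14.1%) had a trend that passed. With CT values over 35 taken as missing, the trends were 0.07 and 0.06 per 10 days, and the changes from E20 to P25 were 0.34 and 0.18. In that setting the miR-26b value of P15 replicate 1 (CT 35.4) was missing and was imputed. The quadratic term passed for no miRNA (0 of 192, 0%; unadjusted p-values under 0.05 were found for 8), and its adjusted p-value was 0.969 for both members. With P15 replicate 1 and P25 replicate 1 left out, which was decided once their values were known, the trend of miR-26a was 0.74 per 10 days and passed (adjusted p = 0.0416, limma), in a fit where 33 of 192 trends passed, 15 of them rising. Its change from E20 to P25 was 1.88 there and did not pass (adjusted p = 0.0728), and the trend of miR-26b was 0.34 (adjusted p = 0.300).

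The sign of these changes held with each of 5 array references and turned only without one, where all 192 tested miRNAs had a median change of -1.58. The CT of miR-26b as deposited was higher in every P25 sample (33.3 to 33.9) than in every E20 sample (32.57 to 32.97). A higher CT is less template, while the normalized level of miR-26b was higher in every P25 sample. How many miRNAs separate these ages by deposited CT was not counted, so this separation is only a description. The 39.1% that separated in either direction did so by normalized level, a different measure. Without a reference the log2 changes of miR-26a and miR-26b between these ages were -0.65 and -0.81. Against the median of the 120 miRNAs common to all samples they were 1.31 and 1.14, and against the mean of the same miRNAs 0.90 and 0.73. The interval of miR-26b against that median, 0.07 to 2.22, lay above 0, and its adjusted p-value of 0.118 did not pass in limma. Adjusted p-values under these references were between 0.118 and 0.824 in limma. The small nuclear RNA wells gave 2.08 and 1.91 with a standard error of 3.19, and 1 of those wells, RNU1A1, ran from a CT of 17.8 to 34.6 over the samples.

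A reference moves all miRNAs alike, so the place of the members among them did not move. With each of 5 references and with none, 134 of the 192 changes lay below that of miR-26a and 126 below that of miR-26b. Relative to the median change of all tested miRNAs, miR-26a was higher by 0.93 and miR-26b by 0.76 on the log2 scale.

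**Figure D2:**
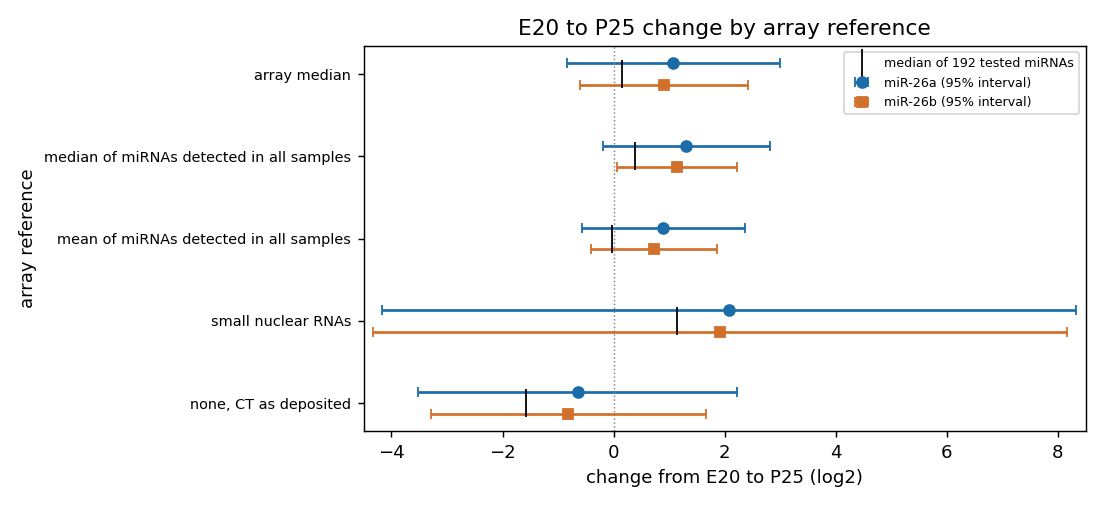
Change from E20 to P25 (log2, P25 minus E20) of miR-26a and miR-26b with 95% intervals from limma for 4 array references and for none, with the median change of the 192 tested miRNAs as a vertical bar. Both members lie to the right of that median in each setting shown, and both are below 0 (-0.65 and -0.81) without a reference.

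Whether the members kept their ratio was asked with the gap between their CT values in the same sample, which no array reference can change. The gap, miR-26b CT minus miR-26a CT, was 5.46, 4.69 and 4.56 cycles at E20, 5.02, 4.73 and 4.99 at P5, 4.05, 5.28 and 5.25 at P15, and 3.24, 6.24 and 5.74 at P25. It was positive in all 12 samples, and the age means stayed between 4.86 and 5.07 cycles. The SD was 0.159 cycles at P5 and 1.61 cycles at P25, so the P25 samples held both the smallest and the largest gap. An exact permutation test over the 4 ages gave p = 0.992, and E20 against P25 differed by 0.17 cycles (exact two-sided permutation test, p = 0.9). A gap of about 5 cycles would be a large excess of miR-26a, but the amplification of the assays was not given, so the gap is used here only to compare samples.

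The smallest gaps were those of P25 replicate 1 and P15 replicate 1, which also had the highest miR-26a CT and the fewest detected miRNAs. The part of the low detection in these gaps was not tested. Without P25 replicate 1 the gap at P25 exceeded that at E20 by 1.09 cycles, and without P25 replicate 2 the difference was -0.41 cycles. The SD of the gap over the 12 samples was 0.784 cycles. For 6 miRNAs with a mouse and a rat assay and a mean CT between those of the members, the SD of the difference between the assays was between 0.489 and 0.784 cycles. Of these pairs 1 had a larger SD than the miR-26 gap, miR-345, at 0.7841 against 0.7837 cycles, which is nearly a tie. The other pairs had smaller SDs, and the pairs were measured in 7 to 12 samples.

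**Figure D3:**
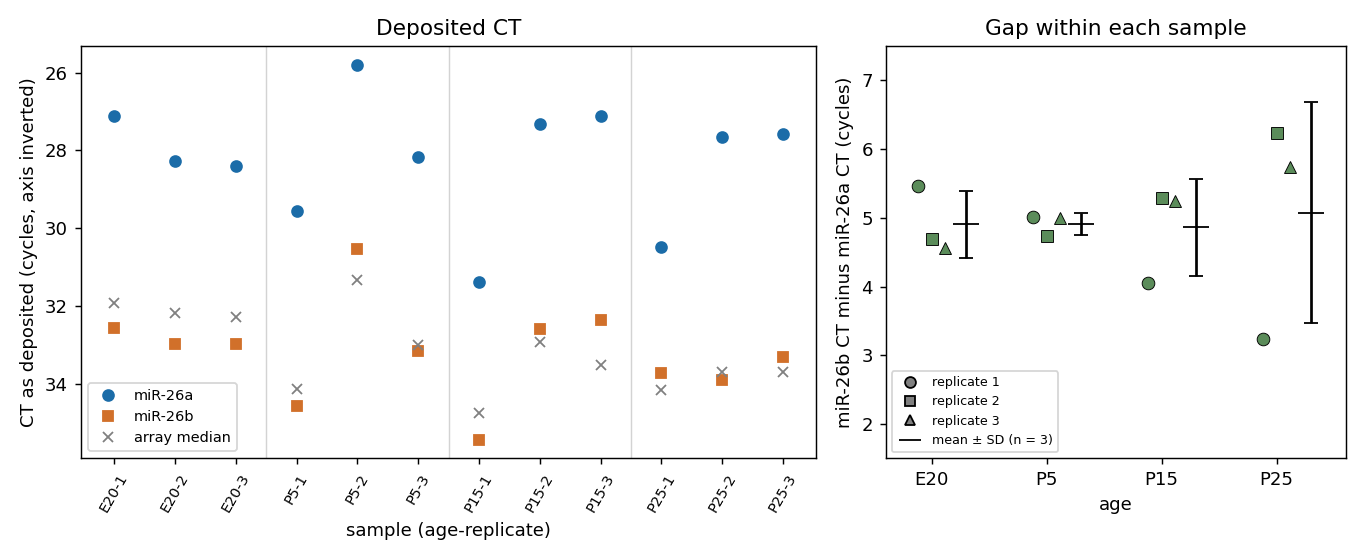
Left, deposited CT (cycles, axis inverted so that more template is higher) of miR-26a, miR-26b and the array median in each of the 12 samples. Right, the gap between the members' CT (cycles) by age, with samples as points and the mean ± SD beside them; the gap is 3.24 in P25 replicate 1 and 6.24 in P25 replicate 2.

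Among the 120 miRNAs detected in all 12 samples, miR-26b varied little on the normalized scale, which was the only scale ranked. The SD of its normalized level was 0.65, the 6th smallest of the 120 miRNAs detected in all samples, whose median SD was 1.13. For miR-26a it was 1.05, the 50th smallest. The range of the 4 age means was 1.08 for miR-26a and 0.97 for miR-26b, against a median of 1.55 over these miRNAs. By this range miR-26a was the 36th and miR-26b the 31st smallest.

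The miRNAs most like each member were named by the Pearson correlation of normalized levels over the 12 samples, among the other 119 detected in all of them. For miR-26a these were miR-429 (r = 0.925), miR-30b (0.919), miR-30c (0.905), miR-23b (0.895) and miR-27a (0.878). miR-429 belongs to the epithelial miR-200 family. These correlations are descriptions, since the points share 1 array reference and differ in depth, and the median correlation of miR-26a with the 119 was 0.258. Spearman's rho was between 0.881 and 0.930 for these 5, and without the 2 samples farthest from the median of miR-26a, r was between 0.812 and 0.916.

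The choice by correlation over these same 12 samples means that the 5 miRNAs follow miR-26a where it varies most, so their values are given as a description. In P15 replicate 1 they lay between 2.73 and 2.98 on the normalized scale, the lowest of the 3 P15 samples for each. In P25 replicate 1 they lay between 2.90 and 4.88, again the lowest of the age for each. For miR-26b the 0.44 in P25 replicate 1 was the highest of the P25 samples. The SD of the CT difference to miR-26a was 0.406 cycles for miR-429 and 0.429 for miR-30b, below the 0.784 cycles of its own family member.

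For miR-26b the most like were miR-99a (r = 0.815), miR-101a (0.795), miR-30d (0.788), miR-141 (0.768) and miR-200a (0.764). miR-101a is another miRNA known to act on Ezh2, and miR-141 and miR-200a belong to the epithelial miR-200 family. The median correlation of miR-26b with the 119 was 0.234, and without the 2 samples farthest from its median, r for these 5 was between 0.620 and 0.852. The members correlated with each other at r = 0.663 (rho = 0.622), which placed miR-26b 31st for miR-26a and miR-26a 17th for miR-26b. Taken as deviations from the age means, the correlation between them was 0.576.

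**Figure D4:**
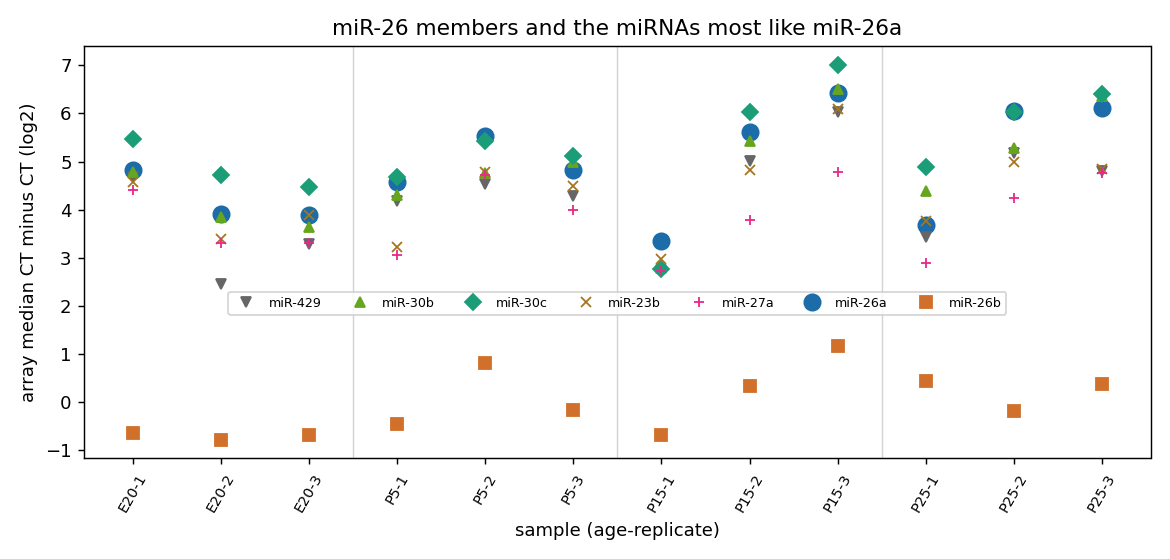
Normalized level (array median CT minus CT, log2) of the 2 members and of the 5 miRNAs most like miR-26a in each of the 12 samples, grouped by age. In P15 replicate 1 and P25 replicate 1 miR-26a (3.36 and 3.68) is low together with the 5 miRNAs, while miR-26b is not low in P25 replicate 1 (0.44).

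Other miRNAs described as lowered by MYC had mostly positive changes relative to the array median, with the miR-26 members near the middle of the list. The list held 27 names without the members, which matched 26 assays on the panel, and 24 of these were tested. Of the 5 miRNAs most like miR-26a, miR-30b, miR-30c and miR-23b stand on it. From E20 to P25, 22 of the 24 had a log2 change above 0, against 103 of all 192 (53.6%), and their median was 1.07 against 0.15 over all. With the CT as deposited 6 of the 24 were above 0. The median of all miRNAs, above which 20 of the 24 lay, moves with the reference as they do. That count is therefore the same with any reference and is no check of it. In limma 3 of them rose and 0 fell, where 8 of 192 (4.17%) rose and 15 (7.81%) fell.

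The 3 that rose were let-7b, let-7c and miR-29c, and their P25 samples lay above every E20 sample. let-7b, a member of the let-7 family of differentiation-linked miRNAs, had normalized levels of 5.097, 4.38 and 3.81 at E20 and of 7.79, 8.07 and 6.49 at P25 (change 3.02, adjusted p = 0.0124, limma). let-7c was at 3.61, 2.31 and 1.75 at E20 and at 5.49, 6.21 and 4.23 at P25 (change 2.75, adjusted p = 0.0388, limma). miR-29c, of a family known to act on collagen mRNAs, was at -1.67, -3.14 and -2.00 at E20 and at 1.93, 1.01 and 0.82 at P25 (change 3.53, adjusted p = 0.0374, limma). The linear trend passed for the same 3 and for no other miRNA of the list, where 9 of 192 (4.69%) had a rising trend. With the small nuclear RNAs as reference or with none, 0 of the 24 were called, where 0 and 26 of all 192 were. With the median of the 120 common miRNAs 6 rose, where 20 of all 192 did. The calls also rested on single samples, since without E20 replicate 2, E20 replicate 3 or P25 replicate 2 none of the 24 was called, and without P25 replicate 1 only miR-195 was. With any 1 sample left out, between 20 and 23 of the 24 changes stayed above 0. Without P15 replicate 1 and P25 replicate 1 together 22 of 24 were above 0, with a median of 1.29. In that fit 3 rose (let-7b, let-7c and miR-195), where 11 of all 192 did. P25 replicate 1 was not the lowest P25 sample for any of the 3, unlike miR-26a.

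Of the other miRNAs described as acting on Ezh2, 11 of 12 were tested, 9 of them let-7 family members that also stand on the list above. 8 of the 11 had a change above 0 (3 with the CT as deposited), against 103 of all 192 (53.6%), and their median was 0.72 against 0.15. In limma 2 of the 11 rose, let-7b and let-7c, where 8 of 192 (4.17%) did. Against the median of the 120 common miRNAs 5 rose, where 20 of 192 did. These calls had the same dependence on single samples as above. The change was 1.93 for miR-101a and -0.19 for miR-101b, and neither passed.

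The miR-17-92 group, which MYC raises in dividing cells, had negative changes. All 8 tested assays had a change below 0 with the array median, with a median of -2.14, and 1 was above 0 with the small nuclear RNAs. In limma 1 of the 8 fell, mmu-miR-17, with a log2 change of -3.63 (adjusted p = 0.0124), where 15 of 192 (7.81%) fell. Against the median and the mean of the 120 common miRNAs 3 and 4 of the 8 fell. Of all 192, 40 and 35 were called there, 20 and 10 of them rising. The levels of miR-17 were 3.14, 1.29 and 1.67 at E20 and -2.48, -0.77 and -1.54 at P25. Without E20 replicate 1 or P25 replicate 1 it was not called, and all 8 changes stayed below 0 with any 1 sample left out. Without P15 replicate 1 and P25 replicate 1 together 3 of the 8 fell, miR-17, miR-93 and miR-106b. In that fit 32 of 192 were called, 11 of them rising. The trend fell for miR-17 and miR-106b, which are named after their values were seen, where 18 of 192 (9.38%) had a falling trend. The part of MYC or Ezh2 in the changes of these lists and of the miR-26 members was not tested.

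**Figure D5:**
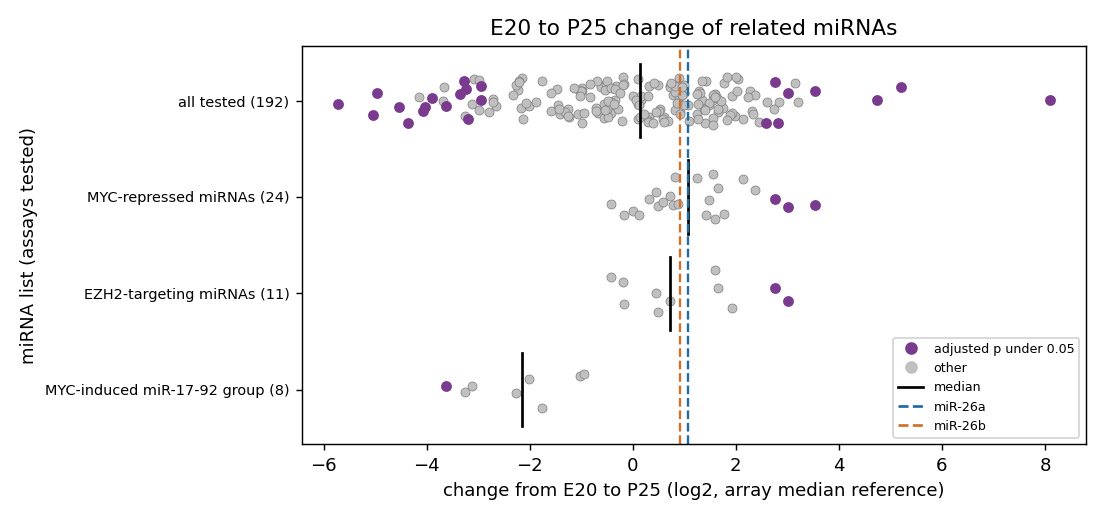
Change from E20 to P25 (log2, array median reference) of all 192 tested miRNAs and of 3 lists, each point an assay, with the list median as a bar and the members as dashed lines. miR-26a (1.08) and miR-26b (0.91) lie near the median of the MYC-repressed list (1.07), and all 8 assays of the miR-17-92 group lie below 0.

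Of the 11 epithelial and acinar assays 2 rose from E20 to P25, miR-148a and miR-375, where 8 of 192 (4.17%) did. Against the median of the 120 common miRNAs 7 rose and 1 fell, and against their mean 5 rose and 1 fell. Of all 192, 40 and 35 were called against these references, 20 and 10 of them rising. The change was above 0 for 9 of the 11, and it was -2.13 for miR-203 and -2.23 for miR-205. The 11 assays stand for 9 miRNAs, since miR-200b and miR-200c each had a mouse and a rat assay. Summed levels take both assays of a miRNA, also for miR-1, miR-143 and miR-223 on the lists below. The summed level of the list was between 6.99 and 8.40 at E20 and between 9.06 and 9.81 at P25 on the log2 scale. Markers of other cell types also differed between the ages. Each summed level takes only the assays with a CT in the sample. For the 5 striated muscle assays it was between 4.36 and 6.23 at E20 and between 0.17 and 1.88 at P25. All 5 had a CT at E20 and 2 to 3 at P25. In limma 2 of 3 tested fell, miR-1 and miR-133b, where 15 of 192 (7.81%) did. Against the median of the 120 common miRNAs miR-133b was not called. The summed level of 3 mesenchymal assays was between 4.81 and 5.57 at E20 and between 2.30 and 2.68 at P25. In limma 1 of 3 fell (miR-214), against the same 15 of 192. The summed level of 3 smooth muscle and pericyte assays was between 4.77 and 5.11 at E20 and between 6.43 and 7.35 at P25. In limma 1 of 3 rose, miR-145, where 8 of 192 (4.17%) did. It was not called against the mean of the 120 common miRNAs or without a reference. miR-145 was at -2.97 in E20 replicate 1 and at 4.04 and 4.34 in the other E20 samples. The summed leukocyte assays lay between 1.98 and 3.00 at E20 and between 1.65 and 3.24 at P25, and 6 had a CT at E20 but 3 to 5 at P25. The summed nerve assays lay between 0.80 and 4.85 at E20 and between -0.10 and 3.78 at P25, and 4 had a CT at E20 but 1 to 4 at P25. The endothelial assay lay between 2.56 and 3.93 at E20 and between 2.71 and 4.88 at P25. None of the tested leukocyte (4), nerve (2) or endothelial (1) assays was called in limma, where 23 of 192 (12%) were. With the small nuclear RNAs as reference no assay of the cell type lists was called. The 3 erythrocyte assays all gave a CT at E20 and none did in 1 of the P25 samples. The part of these cells in the miR-26 levels was not tested.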

How the data were processed

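miRNA levels were measured by qRT-PCR in 12 rat samples, 3 per age. The authors used 1 ng of total RNA per cDNA reaction on an Exiqon rodent miRNA panel and deposited CT values, a score that was neither imputed nor normalized. Undetermined wells count as missing. A median per array that comes with the table served only as an alternative. The log2 values were computed here. A CT under 40 was taken as detected, and an assay was tested if each age had such a CT in 2 or more of its 3 replicates (192 assays). Each CT was subtracted from the array's median CT over detected miRNAs, and 122 missing values were imputed from 10 nearest neighbors, which touched neither member. Folds are powers of 2, which takes template to double in each cycle.

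Tests used limma 3.58.1 in R 4.3.3 over all 12 samples, with Benjamini-Hochberg adjustment at 0.05 within each comparison. Exact permutation tests were run in Python 3.11.15, and figures were drawn with matplotlib 3.10.9. The procedure was tested on simulated data. The members, lists and tests were chosen with earlier results of these data known. Named miRNAs were the members, the 5 most like each, and called members of the MYC-repressed and Ezh2 lists. Other miRNAs, from the miR-17-92, Ezh2 and cell type lists, were named after their values were seen.

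The ages share the replicate numbers 1 to 3. Deviations from the age means of same-numbered samples, over 120 miRNAs, correlated above 0.1 in all 9 pairs among P5, P15 and P25 (0.126 to 0.563) and in 1 of 9 pairs with E20 (-0.234 to 0.123). Differently numbered samples correlated between -0.550 and 0.359 among P5, P15 and P25, and between -0.206 and 0.264 with E20. On these values alone, the numbers may pair the postnatal ages but not E20. The main limma fits and the permutation tests used no such pairing. The alternative fit with the replicate number as a block included E20. The number of detected miRNAs stands for depth, and precision falls as the CT grows.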

Additional observations from a re-analysis of the deposited data

How the results depend on the processing

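The alternatives covered the array reference, the detection filter, missing values, the CT limit, the statistics, the samples and the block. The members were called in none of the planned ones. Without a reference, where the 192 tested miRNAs had a median change of -1.58, the signs turned: the change from E20 to P25 was -0.65 for miR-26a and -0.81 for miR-26b, and the trends were -0.30 and -0.35 per 10 days. With the samples of fewest detected miRNAs left out, chosen after the values were seen, the trend of miR-26a passed at 0.74. Leaving out 1 sample at a time gave changes of 0.66 to 1.88 for miR-26a and 0.79 to 1.11 for miR-26b, trends of 0.25 to 0.62 (the latter without P25 replicate 1) and 0.26 to 0.39, and a change of the gap of -0.41 to 1.09 cycles; its sign turned without E20 replicate 3 (-0.002), P25 replicate 2 or P25 replicate 3 (-0.17). With a CT limit of 35, where the miR-26b value of P15 replicate 1 was imputed, the changes were 0.34 and 0.18 and the trends 0.07 and 0.06. With the replicate number as a block the changes stayed at 1.08 and 0.91 (adjusted p = 0.383 and 0.416, limma), the gap changed by 0.17 cycles, and no call of a member changed, while the miRNAs called between E20 and P15 went from 0 to 11.

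The 23 miRNAs called between E20 and P25 became 40 and 35 against the median and the mean of the 120 common miRNAs and 35 when only these ages were fitted. They became 11 of 119 tested with a CT limit of 35, 10 of 192 with missing values at CT 40 and 6 when only those 120 were tested. With the small nuclear RNAs they became 0 (1 at an unadjusted p-value under 0.05). With 1 sample left out they ran from 11 (without E20 replicate 2 or P25 replicate 1) to 39 (without P15 replicate 1). The 27 trends ran from 0, with the small nuclear RNAs (2 at an unadjusted p-value under 0.05), to 42 of 192, against the median of the 120 common miRNAs. With assays tested that had a CT in 2 of 3 replicates at 1 or more ages, 45 of 311 trends passed. The 15 calls of the F test ran from 0, with the small nuclear RNAs or no reference (1 and 38 at an unadjusted p-value under 0.05), to 21, and 1 was left without E20 replicate 1.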
